A study of Mus musculus with 15 samples.

Results

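The transforming growth factor beta (TGF-beta) pathway was followed through 10 genes, chosen by name: the ligands *Tgfb1*, *Tgfb2* and *Tgfb3*, the latent-complex gene *Ltbp1*, the receptors *Tgfbr1*, *Tgfbr2* and *Tgfbr3*, and *Smad2*, *Smad3* and *Smad7*. All 10 were among the 20910 genes of the count table for cultured mouse retinal pigment epithelium (RPE) cells and among the 25038 genes of the table for RPE/choroid tissue, and all 10 had enough counts to be tested in every comparison. The study sequenced polyA RNA of 15 libraries to ask what the loss of *Prom1*, the gene of the membrane glycoprotein prominin-1, does to the RPE. The cultured cells (mRPE) came from pooled young adult C57/BL6J mice and were immortalized with a lentivirus carrying HPV E6/E7. The groups were 4 libraries of WT mRPE, 3 of the *Prom1*-KO clone 22 (KO22) and 2 of the *Prom1*-KO clone 26 (KO26), both clones derived from cells that stably express Cas9 and were given a synthetic guide against exon 5 of *Prom1*. Whether the WT libraries also carry Cas9 or a scrambled guide is not given in the sources used here. Each KO group is 1 clone, so the clone and the loss of *Prom1* cannot be told apart within either. The study left both KO26 libraries out of its sequencing results as outliers. It did use a line named KO26.4, beside KO22, in its qPCR and Western blots. The tissue groups were 3 libraries of WT RPE/choroid and 3 labelled *Prom1*-KO, from Prom1fl/fl mice crossed with RPE65-Cre mice and gavaged with tamoxifen. The study describes its mice as C57/BL6J of both sexes, without tying an age or sex to these libraries. Whether the WT mice carried the Cre, the floxed allele or tamoxifen is not given in the sources used here. The RPE65-driven Cre is meant to delete *Prom1* in RPE cells, whereas the dissected tissue also holds choroid.

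TGF-beta ligands are secreted bound to their own propeptide and, in most tissues, to a latent TGF-beta binding protein that tethers the complex to the extracellular matrix until it is released. The freed ligand is bound by the type II receptor TGFBR2, which recruits and phosphorylates the type I receptor TGFBR1. TGFBR1 in turn phosphorylates SMAD2 and SMAD3, which enter the nucleus with SMAD4, and SMAD7 is induced by the pathway and inhibits it. In the RPE the pathway is best known for driving epithelial-mesenchymal transition and matrix deposition.

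The study describes its *Prom1*-KO lines as independent, with deletions at separate sites of the gene. The guide that it reports is shown with the adjacent PAM in capitals, as it sits in the genome. It lies on the minus strand at chr5:44213310-44213329 of GRCm39, in exon 5 of the Ensembl canonical *Prom1* transcript.
*Prom1* guide: cgttgctgcaacaaatgcggCGG

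Short stretches upstream of the RefSeq start site of 3 of the 10 genes are shown, as examples of genes that differed in KO22 or between the clones. Not every such gene is shown. Of the 10 genes, 6 had an entry in the RefSeq promoter table (GRCm38.p6), and each printed stretch was located in GRCm39 by exact match. Capitals mark the motifs found by a search of both strands over the 250 bases before each start: a TATA box (TATAAA), the E-box CACGTG, the SMAD-binding letters CAGAC, the GC box GGGCGG and the cyclic AMP response element TGACGTCA. The AP-1 letters TGANTCA and the SMAD palindrome GTCTAGAC were searched for too and were not found in these stretches. Positions are counted from the RefSeq start. The *Tgfb2* stretch spans positions -55 to -26 (chr1:186438212-186438241, minus strand), that of *Tgfbr1* -133 to -90 (chr4:47353089-47353132, plus strand) and that of *Ltbp1* -84 to -55 (chr17:75312440-75312469, plus strand). The first of these overlaps a first exon in the GENCODE annotation.
*Tgfb2*: caaaCACGTGgtttggggagcacaTATAAA
*Tgfbr1*: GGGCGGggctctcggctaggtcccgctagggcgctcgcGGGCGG
*Ltbp1*: gatttgctgccTGACGTCAcGTCTGctgca
Of 32851 promoter windows of 250 bases in the table, 12.4% held TATAAA, 6.02% CACGTG, 42.2% CAGAC, 32.7% GGGCGG and 1.55% TGACGTCA. In the *Ltbp1* stretch the capitals GTCTG are CAGAC read on the other strand. These matches describe the letters alone, and the most frequent of them were found in a large share of all promoters.

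Total counts were 8076188 to 27537863 per mRPE library and 48154444 to 61766179 per RPE/choroid library. The mRPE libraries fall into the library series 8995, with 1 library of each group, and 9262, with the other 3 WT, 2 KO22 and 1 KO26 libraries. These series were taken here as the batches of the study's own model and were a term in every mRPE fit. *Prom1* itself was not analysed here in mRPE, so these counts give no check of the clones' labels. Of 14 RPE markers, 10 were not among the rows of the mRPE table used here, including *Rpe65* and *Krt8*, and the other 4 summed to 11.8 to 17.4 CPM in WT. Fibroblast, pericyte and smooth muscle markers summed to 6791 to 8919 CPM in the same WT libraries. Of these 10 markers 7 had a WT mean of at least 1 CPM, and *Col1a1* was the largest part, at 4119 CPM. *Myh11* and *Des* were below 1 CPM, and *Lum* was not among the rows used here. In RPE/choroid, *Prom1* stood at 48.7, 49.6 and 53.3 CPM in WT and at 49.9, 48.1 and 35.5 CPM in the tissue labelled *Prom1*-KO, with a log2 fold change of -0.18 (adjusted p = 0.824, edgeR), so the targeted gene did not separate the groups in this tissue.

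In KO22 mRPE, *Tgfb2*, *Tgfb3* and *Tgfbr2* fell, by 3.16-fold, 4.06-fold and 5.57-fold relative to WT. None of the 10 genes rose past both limits used here (adjusted p below 0.05, log2 fold change beyond 1.2 in either direction), although *Tgfb1*, *Tgfbr1*, *Ltbp1* and *Smad2* rose by the adjusted p alone. Of all 20455 tested genes, 13.8% were lower and 11.4% higher at both limits (25.2% in all). By the adjusted p alone 26.1% were lower and 26.9% higher (53% in all), so a change was common in this comparison. Without any overlap between the 3 KO22 and 4 WT libraries, 4 of the 10 genes lay higher and 4 lower in KO22, against 24.8% and 25.3% of all tested genes. Levels are CPM (counts scaled to library size, with TMM factors), given per library in the order of the replicates, the first of each group being of series 8995. In bulk libraries, fewer cells of a type and less RNA per cell cannot be told apart.

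**Figure D1:**
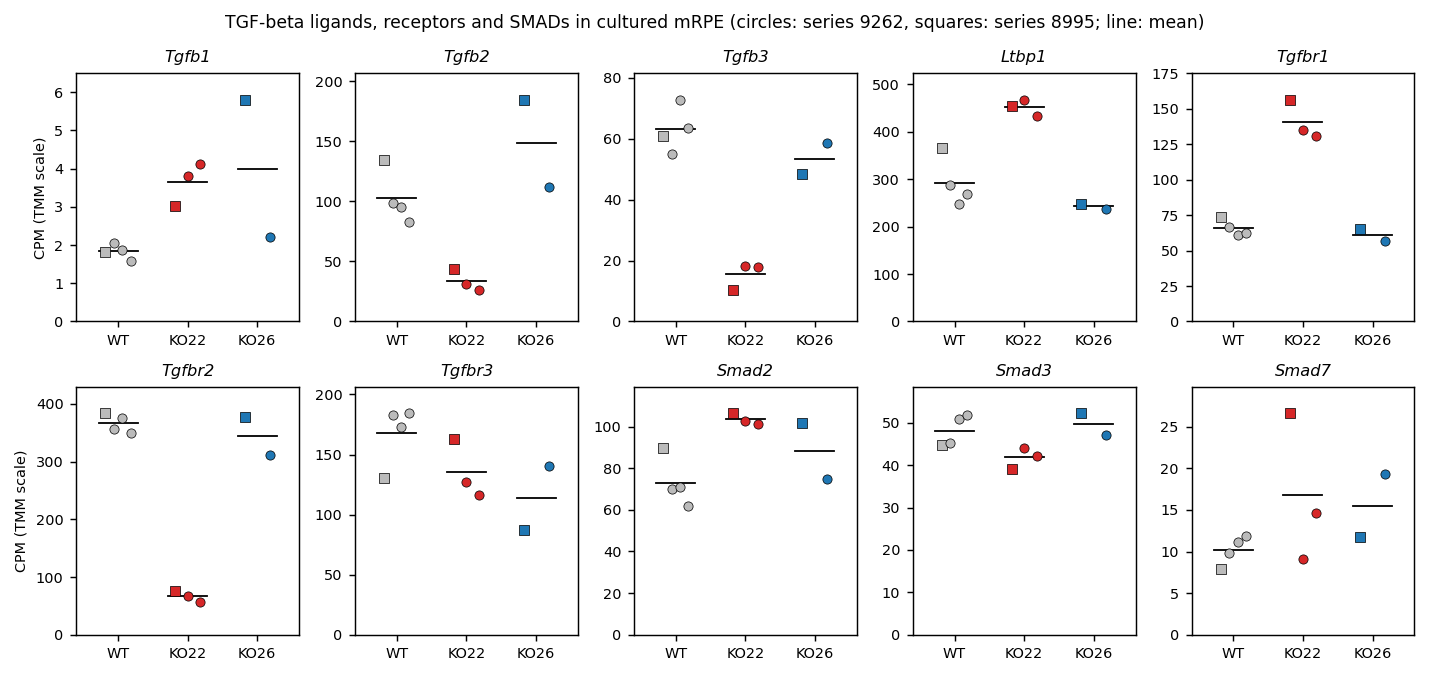
Level of each of the 10 genes (CPM, vertical axes from 0 and scaled per gene) in 4 WT, 3 KO22 and 2 KO26 mRPE libraries, with squares for series 8995, circles for series 9262 and lines for group means. The KO22 libraries lie below every WT and KO26 library for *Tgfb2*, *Tgfb3* and *Tgfbr2* and above them for *Tgfbr1* and *Ltbp1*.

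Among the ligands, *Tgfb2* is the isoform with a central part in eye development, and it was counted at 134, 98.6, 95.2 and 83.2 CPM in the WT libraries. In KO22 it stood at 43.8, 31.1 and 26.5 CPM, so no KO22 library reached a WT library. This gave a log2 fold change of -1.66 (95% interval -1.93 to -1.40, adjusted p = 5.59e-06, edgeR's quasi-likelihood test). Within series 8995 and within series 9262 it was -1.60 and -1.67, on log2 CPM with a pseudocount of 0.5.

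*Tgfb3*, a ligand known for its part in palate closure and scarless repair, was counted at 60.8, 55.1, 72.8 and 63.5 CPM in WT and at 10.5, 18.3 and 17.8 CPM in KO22. The lowest WT library was above the highest KO22 library, and the library of series 8995 was the lowest in KO22. The log2 fold change was -2.02 (95% interval -2.40 to -1.64, adjusted p = 1.49e-05, edgeR), with -2.48 in series 8995 and -1.78 in series 9262. The 776 tested genes of chromosome 12, on which *Tgfb3* lies, stood at -0.50 in the median of their log2 fold changes for KO22, beside -0.03 for all tested genes, and its part in the result was not tested. For the chromosomes of the other called genes this median was -0.19 (chromosome 1, *Tgfb2*) and 0.27 (chromosome 9, *Tgfbr2*).

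*Tgfb1*, the ligand best known from platelets and immune cells, was scarce in these cells, at 1.83, 2.06, 1.87 and 1.58 CPM in WT, or 19 to 46 counts per library. It reached 3.03, 3.81 and 4.11 CPM in KO22, with no overlap. The log2 fold change of 0.99 (95% interval 0.47 to 1.51, adjusted p = 0.00561, edgeR) passed the adjusted p and missed the fold limit.

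*Ltbp1*, which encodes the binding protein that carries latent TGF-beta into the matrix, moved the other way from *Tgfb2* and *Tgfb3*. It was at 367, 287, 249 and 268 CPM in WT and at 454, 467 and 434 CPM in KO22, which gave 0.62 on the log2 scale (95% interval 0.34 to 0.90, adjusted p = 0.00231, edgeR). The WT library of series 8995 lay nearest to KO22, and the change within the series was 0.31 in 8995 and 0.75 in 9262.

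The receptors differed from each other in KO22. *Tgfbr2*, the ligand-binding type II receptor (chr9:115913361-116004800, GRCm39), was at 384, 357, 376 and 349 CPM in WT and at 75.3, 67.2 and 57.6 CPM in KO22. The groups lay far apart, with SDs of 16.3 CPM around a WT mean of 366 CPM (n = 4) and of 8.89 CPM around a KO22 mean of 66.7 CPM (n = 3). In the fit, *Tgfbr2* stood at -2.48 on the log2 scale (95% interval -2.75 to -2.21, adjusted p = 7.47e-07, edgeR), and -2.34 and -2.52 within series 8995 and 9262.

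*Tgfbr1*, the type I receptor kinase (chr4:47353134-47414931), was higher in each KO22 library, at 156, 135 and 131 CPM, than in each WT library, at 73.9, 66.3, 61.2 and 62.6 CPM. Its log2 fold change of 1.07 (95% interval 0.86 to 1.28, adjusted p = 1.99e-05, edgeR) was precise but below the fold limit. *Tgfbr3*, the co-receptor betaglycan that presents ligand to the other receptors and binds TGF-beta2 in particular, overlapped between the groups. It stood at 131, 183, 173 and 184 CPM in WT and at 163, 127 and 116 CPM in KO22 (log2 fold change -0.31, 95% interval -0.68 to 0.07, adjusted p = 0.155, edgeR). The sign differed between the series, with 0.32 in 8995 and -0.56 in 9262. Without the WT library of series 8995 *Tgfbr3* stood at -0.58 (adjusted p = 1.42e-05, edgeR), and without the KO22 library of that series at -0.55 (adjusted p = 2.06e-05, edgeR).

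Of the SMAD genes, *Smad2*, a receptor-activated transducer, was at 89.6, 70.2, 70.9 and 61.8 CPM in WT and at 106, 103 and 101 CPM in KO22, and its rise of 0.49 on the log2 scale passed the adjusted p alone (0.00479, edgeR). *Smad3*, the transducer that binds DNA directly, stood at 44.7, 45.1, 50.8 and 51.7 CPM in WT and at 39.2, 44.1 and 42.2 CPM in KO22. Every KO22 library lay below every WT library, yet the log2 fold change of -0.19 (95% interval -0.43 to 0.05) did not pass the test (adjusted p = 0.154, edgeR).

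*Smad7*, the inhibitory SMAD that pathway activity induces, was at 7.87, 9.87, 11.1 and 11.8 CPM in WT. The KO22 libraries were spread from 9.16 CPM to 26.6 CPM, and the 26.6 CPM belonged to the library of series 8995. The log2 fold change was 0.61 (95% interval -0.10 to 1.33, adjusted p = 0.133, edgeR), from 1.70 in series 8995 and 0.09 in series 9262, and it was 0.11 without the KO22 library of series 8995. Without the KO22 replicate 2 it was 0.95 (adjusted p = 0.0358, edgeR).

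**Figure D2:**
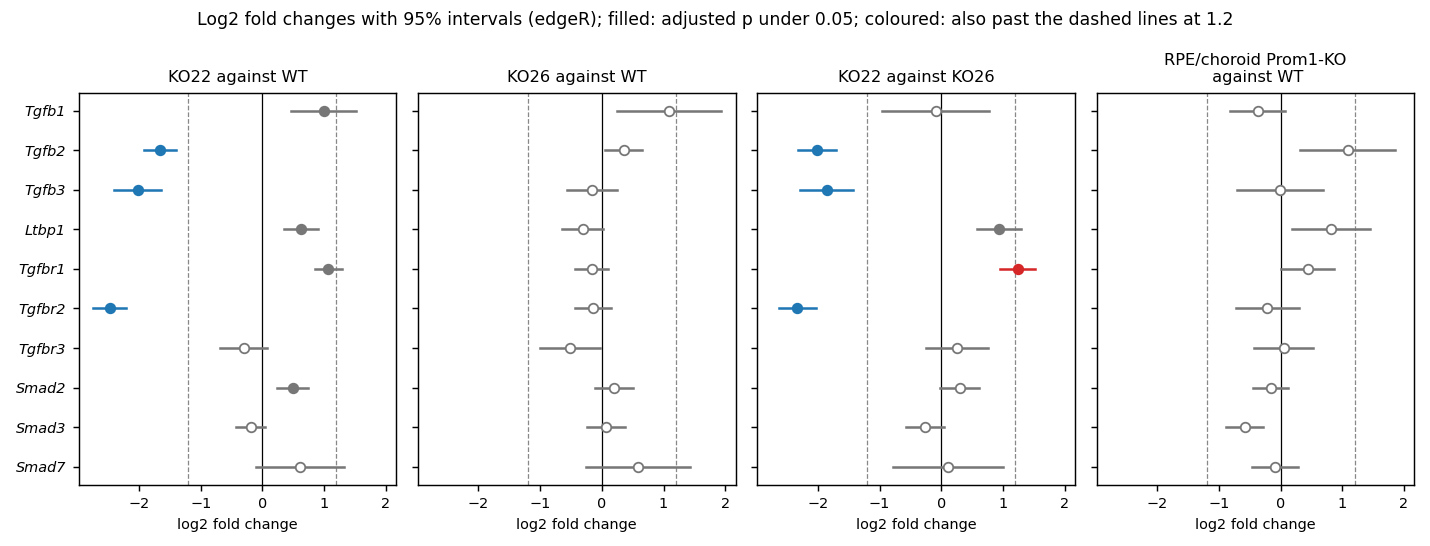
Log2 fold change of each of the 10 genes with its 95% interval (edgeR) in 4 comparisons, with dashed lines at the fold limit of 1.2, filled points for an adjusted p under 0.05 and coloured points for genes past both limits. *Tgfb2*, *Tgfb3* and *Tgfbr2* lie past the lower line for KO22 against WT and against KO26, and no gene passes the test for KO26 against WT or in RPE/choroid.

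In the second clone, KO26, none of the 10 genes was called against WT by edgeR at both limits or by the adjusted p alone, and 3 of 10 had an unadjusted p under 0.05, beside 20.1% of all tested genes. DESeq2 also called 0 of them. Of all 20737 genes tested in this fit over the 9 mRPE libraries, 1.21% were higher and 0.719% lower at both limits (1.92% in all), and 2.36% were higher and 1.13% lower by the adjusted p alone (3.5% in all). The comparisons of KO22 and of KO26 share the 4 WT libraries.

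The 3 genes that fell in KO22 stood in the KO26 libraries at 185 and 112 CPM (*Tgfb2*), 48.3 and 58.6 CPM (*Tgfb3*) and 377 and 311 CPM (*Tgfbr2*). These values overlap the WT range for each of the 3 genes. Their log2 fold changes against WT were 0.35 (95% interval 0.06 to 0.65, adjusted p = 0.175), -0.16 (-0.57 to 0.24, adjusted p = 0.649) and -0.15 (-0.44 to 0.14, adjusted p = 0.562), all from edgeR.

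*Tgfb1* was at 5.80 CPM in the KO26 library of series 8995 and at 2.20 CPM in that of series 9262, both above every WT library. Its log2 fold change of 1.09 (95% interval 0.25 to 1.93) did not pass the test (adjusted p = 0.142, edgeR), and within the series it was 1.44 and 0.21. *Ltbp1*, at 247 and 238 CPM, lay below every WT library (log2 fold change -0.31, adjusted p = 0.277, edgeR). For the remaining 5 genes the libraries of KO26 and WT overlapped, with log2 fold changes from -0.52 (*Tgfbr3*) to 0.58 (*Smad7*). Single libraries moved these 2 values, *Tgfbr3* lying between -0.93 and -0.26 and *Smad7* between -0.10 and 1.01 as each library was left out. The share of all tested genes without overlap was 11.9% higher and 12.8% lower, beside 1 of 10 each here.

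The difference between the clones was tested directly in the same fit. *Tgfb2*, *Tgfb3* and *Tgfbr2* were lower in KO22 than in KO26, by log2 fold changes of -2.02, -1.86 and -2.33 (adjusted p = 4.74e-06, 6.62e-05 and 1.9e-06, edgeR), and *Tgfbr1* was higher by 1.24 (adjusted p = 5.98e-05, edgeR). The call of *Tgfbr1* was lost with no series term (1.199) and with the clones' libraries alone (1.195), both just under the fold limit. Of all tested genes 10.7% were lower and 7.56% higher at both limits in this comparison (18.3% in all), and 18.1% were lower and 16.3% higher by the adjusted p alone (34.4% in all). Without overlap between the clones' libraries, 4 of the 10 genes were lower and 2 higher in KO22, beside 24.6% and 23.4% of all tested genes. Series 8995 and series 9262 gave -2.06 and -1.95 for *Tgfb2*, -2.15 and -1.67 for *Tgfb3*, and 1.25 and 1.21 for *Tgfbr1*.

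*Ltbp1* was higher in KO22 than in KO26 by 0.93 (95% interval 0.58 to 1.29, adjusted p = 0.0014, edgeR), past the adjusted p alone. For *Tgfb1*, *Tgfbr3*, *Smad2*, *Smad3* and *Smad7* the clones did not differ past either limit. The intervals of these differences were wide for *Tgfb1* (-0.96 to 0.77) and *Smad7* (-0.78 to 1.00).

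To compare levels between genes, CPM was divided by the length of the Ensembl canonical transcript in kb (GENCODE vM39). By this length *Ltbp1* came first in WT mRPE, at 52.6 ± 9.30 CPM per kb (SD, n = 4), followed by *Smad2* at 44.4 ± 7.13 and *Tgfbr2* at 43.2 ± 1.93, and the libraries of these neighbours overlapped. *Tgfbr3* (27.5 ± 4.14), *Tgfb2* (19.7 ± 4.21) and *Tgfb3* (15.2 ± 1.77) followed with overlaps between neighbours. *Tgfbr1* (11.3 ± 0.98), *Smad3* (9.09 ± 0.70), *Smad7* (2.26 ± 0.39) and *Tgfb1* (0.827 ± 0.089) then came in that order, each apart from the next.

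The places of *Smad2* and *Ltbp1* rest on the length used, since their canonical transcripts hold 1645 and 5571 bases and the unions of their exons 11250 and 10735. With the exon union *Tgfbr2* came first in WT, at 41.7 CPM per kb, and lay apart from *Ltbp1* at 27.3. *Smad2* then stood eighth, at 6.50 CPM per kb. In KO22 *Tgfbr1* stood at 24.1 ± 2.35 CPM per kb (n = 3) and *Tgfbr2* below it at 7.86 ± 1.05, with libraries that did not overlap. In KO26 the order of the receptors was that of WT, with *Tgfbr2* at 40.5 CPM per kb and *Tgfbr1* at 10.5 CPM per kb.

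Within the 3 receptors, taken as shares of their summed CPM per kb, *Tgfbr2* made up 52.7% ± 3.23 in WT mRPE (SD, n = 4), 14.5% ± 0.65 in KO22 (n = 3) and 58.1% ± 7.64 in KO26 (n = 2). *Tgfbr1* made up 13.8% ± 1.49, 44.6% ± 1.72 and 15.02% ± 1.41 in the same groups. No KO22 library overlapped a WT or KO26 library for either share. *Tgfbr3* held 33.5% ± 4.46, 40.9% ± 1.74 and 26.9% ± 9.05.

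Within the 3 ligands, *Tgfb2* held a similar share in WT (54.8% ± 6.13, n = 4) and KO22 (54.3% ± 12.4, n = 3), and 65.0% ± 8.90 in KO26 (n = 2). *Tgfb3* held 42.9% ± 6.09, 31.8% ± 9.76 and 31.0% ± 10.7. *Tgfb1* held 2.34% ± 0.34 in WT, 14.0% ± 2.73 in KO22 and 3.999% ± 1.82 in KO26. Its KO22 share lay above all WT and KO26 libraries. With the exon union as length the *Tgfb1* shares were lower, at 1.26%, 7.96% and 2.16%, in the same order.

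**Figure D3:**
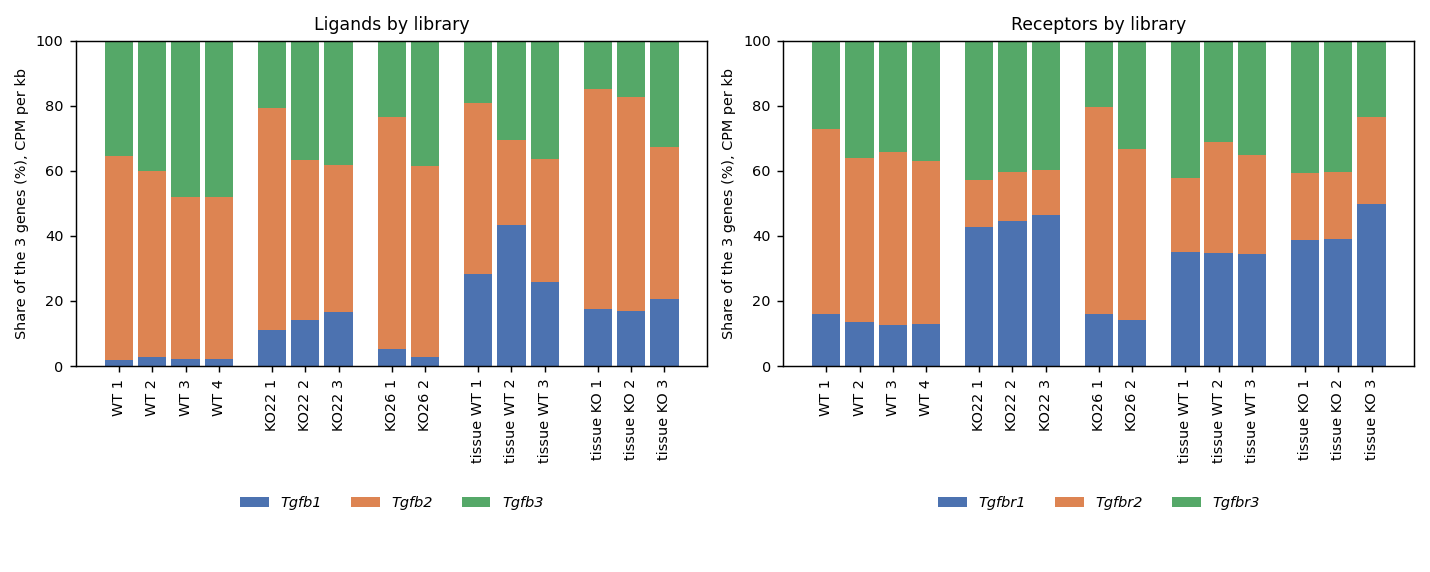
Share of each ligand (left) and each receptor (right) in the summed CPM per kb of its 3 genes (%, bars stacked to 100), for each of the 15 libraries, with tissue KO for RPE/choroid labelled *Prom1*-KO. *Tgfbr2* takes 50.1% to 57.0% of the receptors in WT mRPE and 14.1% to 15.3% in KO22.

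Other genes of the pathway were counted in 5 lists. Of 38 tested genes that TGF-beta is known to induce, 13 (34.2%) were lower and 7 (18.4%) higher in KO22 at both limits, beside 13.8% and 11.4% of all tested genes. The median was -0.45 on the log2 scale, against -0.03. The largest falls were those of *Postn* (periostin, -4.77), *Timp3* (an inhibitor of metalloproteinases, -3.02), *Myl9* (a myosin light chain, -2.73) and *Acta2* (smooth muscle actin, -2.28). *Postn* fell from a WT mean of 8613 CPM to 314 CPM in KO22, and its KO26 mean was 7214 CPM. By qPCR the study reports *Postn* as lower in its KO lines.

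The genes of this list that rose most in KO22 were *Cdkn2b*, *Timp1*, *Cnn1* and *Col7a1*. *Cdkn2b*, an inhibitor of cyclin-dependent kinases, was counted 154 to 435 times in the KO22 libraries and 0 to 9 times in those of WT. *Timp1* (2.34), *Cnn1* (1.94) and *Col7a1* (1.79) are given as log2 fold changes. *Cnn1*, which encodes calponin, overlapped between the groups, and its library of series 8995 stood at 6.40 CPM beside 0.771 and 0.854 CPM in the others.

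Fibroblast, pericyte and smooth muscle markers, of which *Acta2* and *Col1a1* are also in the induced list, summed to 2860 to 4350 CPM in KO22, 6791 to 8919 CPM in WT and 9386 to 10518 CPM in KO26. Of the 8 tested genes of that marker list 5 were lower and 1 higher in KO22 at both limits. The shares of all tested genes were 13.8% lower and 11.4% higher. Endothelial markers, of which *Cdh5*, *Tie1* and *Emcn* were not among the rows used here, summed to 5.43 to 7.28 CPM in KO22 and 154 to 239 CPM in WT. Most of that sum was *Kdr*, the gene of a VEGF receptor, at a mean of 177 CPM in WT and 2.21 CPM in KO22, while 4 of the 7 tested endothelial genes had a positive log2 fold change (median 0.47). The part of these markers in the results for the 10 genes was not tested.

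Of 18 tested genes for latency and activation of the ligands, 5 were lower and 2 higher in KO22 at both limits. Of all tested genes 13.8% were lower and 11.4% higher. The median log2 fold change of the 18 genes was -0.50, against -0.03 for all tested genes. The falls included *Fbn1* (fibrillin-1, to which latent complexes are anchored, -1.94), *Thbs1* (thrombospondin-1, an activator, -1.71), *Lrrc32* (which holds latent TGF-beta at the cell surface, -1.55) and *Ltbp4* (another latent binding protein, -1.28). *Mmp9* (a gelatinase, 1.29) and *Itgb3* (an integrin subunit, 1.28) rose. *Thbs1* stood at -0.37 in series 8995 and at -2.24 in series 9262.

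Among 22 co-receptors and receptor regulators, *Bambi* (a decoy receptor, 1.43) was the only gene called in KO22, at 22 to 42 counts per KO22 library and 10 to 15 per WT library. The share of all tested genes called was 25.2%. By the adjusted p alone 13 of these 22 genes passed, beside 53%. None of 17 other SMADs and co-repressors was called at both limits by edgeR, beside 25.2% of all tested genes. By the adjusted p alone 10 of the 17 passed, beside 53%, and 11 had an unadjusted p under 0.05, beside 58.4%. Of 9 tested genes of the activin branch, which shares SMAD2 and SMAD3, *Inhbb* (the inhibin beta-B subunit) fell by 3.43 on the log2 scale, from a WT mean of 26.7 CPM to 2.43 CPM. *Inhbb* alone was called at both limits, and 6 of the 9 passed the adjusted p alone, beside 25.2% and 53% of all tested genes.

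In KO26 against WT, 2 of the 104 tested genes of the 5 lists were called at both limits, beside 1.92% of all tested genes. They were *Mmp9* (2.02, adjusted p = 0.00859, edgeR) and *Inhbb* (-1.61, adjusted p = 0.0244, edgeR). The direct comparison of the clones called 12 of the 38 induced genes lower and 6 higher in KO22. Of all tested genes it called 10.7% lower and 7.56% higher. The median log2 fold change was -0.58 for the 38 genes and 0.00 for all tested genes. The direct comparison also called *Smad1* (1.31) higher and *Smad6* (-1.24) lower in KO22. The former is a transducer and the latter an inhibitor of the related BMP pathway. *Inha*, the inhibin alpha subunit, was lower in KO22 than in KO26 (-1.58).

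**Figure D4:**
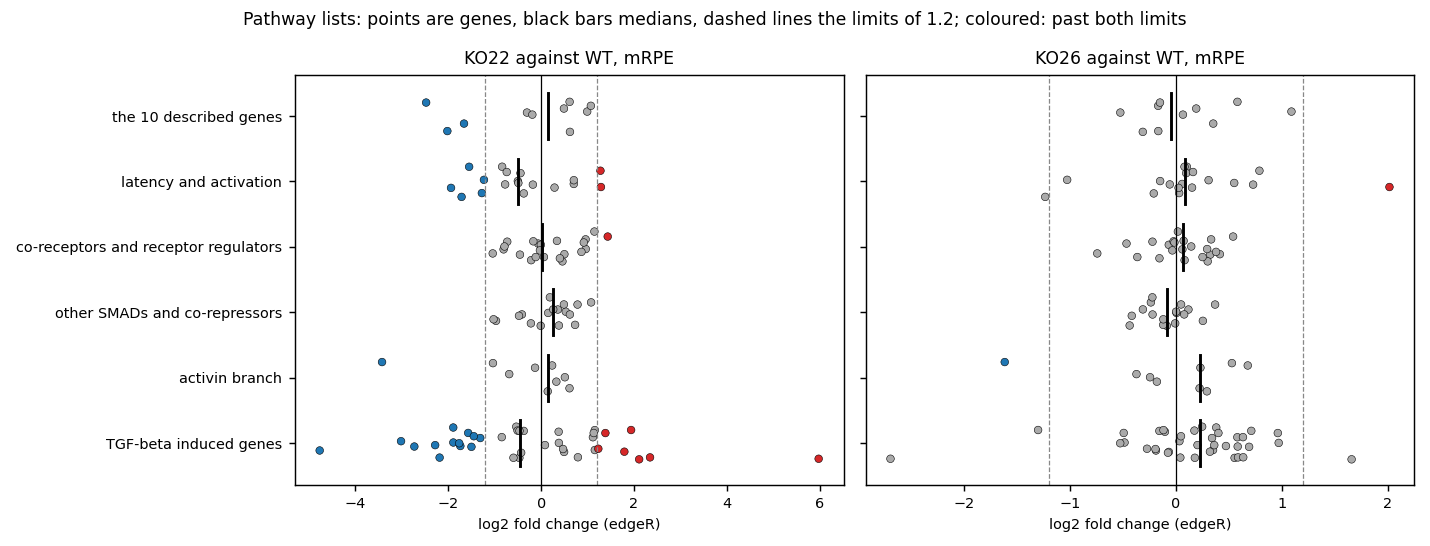
Log2 fold changes (edgeR, horizontal axes, scaled separately for each clone) of the 10 genes and of 5 pathway lists in KO22 (left) and KO26 (right) against WT mRPE, 1 point per gene, with bars for list medians, dashed lines at 1.2 and colour for genes past both limits. For KO22 the medians of the induced genes and of the latency genes lie at -0.45 and -0.50, and for KO26 at 0.23 and 0.09.

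The genes with levels most like those of the called genes were read from Pearson's correlation of log2 CPM over the 9 mRPE libraries, among 16372 genes with a mean of at least 1 CPM. The libraries share clones and series, so the values only describe likeness. Closest to *Tgfbr2* were *Gulp1* (r = 0.997), *Rian* (0.995) and *Tctn2* (0.994). For *Tgfb2* they were *Myl9* (0.995), *Rbms2* (0.991) and *Wbp1l* (0.991), and for *Tgfb3* they were *Acot6* (0.996), *Npr2* (0.995) and *Gm57007* (0.995). *Myl9* is also among the induced genes that fell in KO22.

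In RPE/choroid, none of the 10 genes was called by edgeR in the tissue labelled *Prom1*-KO against WT, at both limits or by the adjusted p alone, and 4 of 10 had an unadjusted p under 0.05, beside 8.3% of all tested genes. DESeq2 called 0 of them at both limits, with *Smad3* at an adjusted p of 0.0216. Of 24926 tested genes, 0.189% were called at both limits and 0.193% by the adjusted p alone, all of them lower and 0 higher. The third library labelled *Prom1*-KO stood apart, with 84.2% of its counts on mitochondrial genes beside 64.9% to 71.3% in the other 5 libraries, so values are also given without it. The tissue and mRPE tables were made separately, so CPM was not compared between them. Mitochondrial genes took 12.9% to 21.6% of the counts in mRPE.

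*Tgfb2* was at 25.02, 11.4 and 18.2 CPM in WT tissue and at 47.4, 42.3 and 25.9 CPM in tissue labelled *Prom1*-KO. The groups did not overlap, although the third library labelled *Prom1*-KO lay close to the highest WT library. Its log2 fold change was 1.08 (95% interval 0.32 to 1.85, adjusted p = 0.395, edgeR), and 1.29 without that library (adjusted p = 0.291, edgeR).

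*Smad3* was at 11.5, 11.8 and 11.2 CPM in WT tissue and at 7.11, 8.55 and 7.36 CPM in tissue labelled *Prom1*-KO. The WT libraries were tightly grouped and lay above all 3 others. The log2 fold change was -0.59 (95% interval -0.89 to -0.28), with an unadjusted p of 0.00239 and an adjusted p of 0.201 (edgeR), and -0.57 without the third library labelled *Prom1*-KO.

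*Ltbp1* stood at 38.0, 22.8 and 26.0 CPM in WT tissue and at 64.5, 52.9 and 35.7 CPM in tissue labelled *Prom1*-KO, with overlap through the third library. Its log2 fold change was 0.82 (adjusted p = 0.449, edgeR) with that library and 1.01 (adjusted p = 0.279, edgeR) without it. *Tgfbr1* was at 27.4, 26.1 and 24.1 CPM in WT and at 30.3, 29.7 and 45.1 CPM in tissue labelled *Prom1*-KO, with a log2 fold change of 0.44 that was 0.20 without the third library. Its highest value thus came from the library that stood apart.

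*Tgfb1*, at 5.69, 8.07 and 5.29 CPM in WT and 5.16, 4.64 and 4.88 CPM in tissue labelled *Prom1*-KO, was lower in each of the latter by a small margin (log2 fold change -0.38, adjusted p = 0.68, edgeR, and -0.39 without the third library). *Tgfbr2* overlapped, at 25.8, 37.6 and 31.2 CPM in WT and 23.3, 22.9 and 35.2 CPM in tissue labelled *Prom1*-KO (-0.22, 95% interval -0.73 to 0.29). Without the third library the value for *Tgfbr2* was -0.46 (adjusted p = 0.5, edgeR). *Tgfb3*, *Tgfbr3*, *Smad2* and *Smad7* overlapped, with log2 fold changes from -0.16 to 0.05. Without the third library these were -0.32 for *Tgfb3*, 0.19 for *Tgfbr3*, -0.18 for *Smad2* and -0.0063 for *Smad7*. Over the 10 genes, 2 were higher and 2 lower in every library labelled *Prom1*-KO than in every WT library, beside 6.71% and 7.89% of all tested genes.

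**Figure D5:**
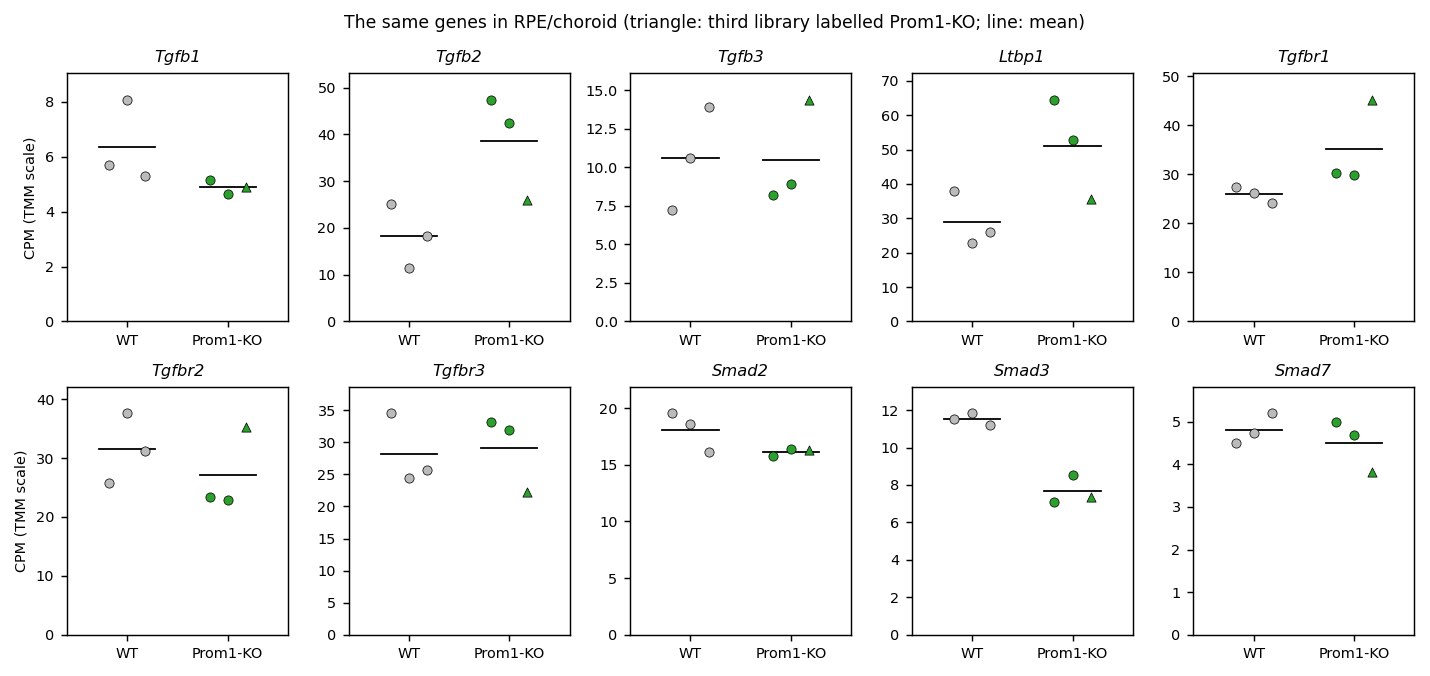
Level of each of the 10 genes (CPM, vertical axes from 0 and scaled per gene) in 3 WT RPE/choroid libraries and 3 labelled *Prom1*-KO, with lines for group means and a triangle for the third library labelled *Prom1*-KO. The groups do not overlap for *Tgfb1*, *Tgfb2*, *Tgfbr1* and *Smad3*.

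In the tissue libraries the sums of RPE and endothelial markers separated the labels, and those of the other marker lists overlapped. The 14 RPE markers, all present in this table, summed to 2155 to 3100 CPM in WT and 679 to 911 CPM in tissue labelled *Prom1*-KO. At both limits 4 of the 14 were lower, beside 0.189% of all tested genes. Their log2 fold changes were negative for 13 and positive for 1 (median -0.74). Endothelial markers summed to 114 to 230 CPM in WT and 78.5 to 102 CPM in tissue labelled *Prom1*-KO. Fibroblast, pericyte and smooth muscle markers (1179 to 1966 CPM and 1078 to 1956 CPM) and macrophage markers (302 to 383 CPM and 255 to 345 CPM) overlapped. Other sums varied widely within both groups. Photoreceptor markers spanned 46.9 to 1248 CPM in WT and 24.5 to 606 CPM in tissue labelled *Prom1*-KO. Skeletal muscle markers spanned 327 to 1044 CPM and 78.3 to 1020 CPM. The part of these cell types in the values of the 10 genes was not tested.

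Among the tissue ligands, *Tgfb2* held 38.8% ± 13.4 of the summed CPM per kb in WT and 60.1% ± 11.6 in tissue labelled *Prom1*-KO (SD, n = 3 each), with overlapping libraries. *Tgfb1* held 32.6% ± 9.54 and 18.4% ± 2.05, without overlap. With the exon union as length the *Tgfb1* shares were 20.7% and 10.6%. The receptors were more evenly divided in WT tissue, with 34.6% for *Tgfbr1*, 29.2% for *Tgfbr2* and 36.2% for *Tgfbr3*. None of 111 genes tested from the 5 pathway lists was called in RPE/choroid by edgeR at both limits or by the adjusted p alone. Of these genes, 23 had an unadjusted p under 0.05, beside 8.3% of all tested genes. The median log2 fold change of the 38 induced genes was -0.02 beside 0.01 for all tested genes.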

How the data were processed

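PolyA RNA of 9 mRPE and 6 RPE/choroid libraries was analysed. The authors trimmed reads with Trim Galore 0.6.7, aligned them to mm39 with STAR, took raw counts per gene from STAR and deposited tables of these counts without the genes of low count. For RPE/choroid the aligner is named only in the submitters' processing notes, and the strand setting of the counting is not given in the sources used here. Both tables were tested as raw counts as deposited by the authors, with TMM normalization and edgeR 4.0.16 (quasi-likelihood F test, R 4.3.3). Genes entered with 5 or more counts in 3 or more libraries, and p-values were adjusted over all of them (Benjamini-Hochberg). A call needed an adjusted p below 0.05 and a log2 fold change beyond 1.2 in either direction, as in the study. KO22 was compared with WT over 7 libraries, and both contrasts with KO26 were taken from a fit of all 9, each with the library series as a term. RPE/choroid was fitted alone. The deposited normalized tables were not used. The scripts were tested on simulated data. Of 200 genes given an absolute log2 fold change of 2, 179 were recovered for KO22 against WT and 144 for KO26 against WT. For KO22 against KO26 it was 128 of 200, and in RPE/choroid 103 of 200.

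Group and replicate came from the sample labels, which do not say that replicates are separate cultures or animals, so the p-values measure the spread between these libraries. The 10 genes, the pathway lists and the markers were chosen with earlier results of these data known, and the study names *Tgfbr2* from the same libraries. The rule for named genes took all 10 genes, *Prom1*, the called genes of each pathway list (at most the 4 largest changes in each direction with a group mean of at least 1 CPM), every listed gene called in KO26 or in RPE/choroid, and the 3 genes most like each called gene. *Kdr*, *Cdh5*, *Tie1*, *Emcn*, *Rpe65*, *Krt8*, *Col1a1*, *Myh11*, *Des* and *Lum* were named after their values were seen. Exons of *Tgfb2*, *Tgfb3*, *Tgfbr1* and *Tgfbr2* overlap genes of the opposite strand, by 443 bases for *Tgfbr2* and *Gm4668*, and those of *Tgfbr3* overlap *Gm43422* on the same strand, so reads there could be assigned otherwise. Photoreceptor, melanocyte and skeletal muscle markers were counted too, and none of them was called in RPE/choroid. In KO22, 2 of 7 tested photoreceptor markers and 2 of 3 skeletal muscle markers were lower, 2 of 7 endothelial markers were lower and 1 higher, 1 of 4 RPE markers was higher, and 0 of 1 melanocyte and 0 of 2 macrophage markers were called at both limits. The shares of all tested genes in KO22 were 13.8% lower and 11.4% higher. Alternatives were DESeq2 1.42.0 and its size factors, other count filters and fold limits, no series term, series 9262 alone, other sets of libraries, and each library left out in turn. The exon union as length and the shares without each library were added after the data were seen.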

Additional observations from a re-analysis of the deposited data

Results flagged for a closer look

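The effect of the *Prom1*-KO clones differed between KO22 and KO26 for 4 of the 10 genes at both limits, by the test of the difference itself in edgeR. In this comparison 10.7% of all tested genes were lower and 7.56% higher in KO22 at both limits (18.3% in all). On the log2 scale, KO22 minus KO26, the difference was -2.02 for *Tgfb2*, -1.86 for *Tgfb3*, -2.33 for *Tgfbr2* and 1.24 for *Tgfbr1*. The last fell just under the fold limit with no series term and with the clones' libraries alone.

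For *Tgfb1* and *Tgfb2* every KO22 library moved one way from WT mRPE and every RPE/choroid library labelled *Prom1*-KO moved the opposite way from WT tissue. *Tgfb1* was higher in KO22 (log2 fold change 0.99) and at -0.38 in the tissue. *Tgfb2* was lower in KO22 (-1.66) and at 1.08 in the tissue. The tables were made separately, the difference between them was not tested, and neither tissue value passed its own test. *Tgfb1* and *Tgfb2* were picked by this lack of overlap between libraries. Without overlap, 24.8% of all tested genes lay higher and 25.3% lower in KO22. In the tissue these shares were 6.71% and 7.89%.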

How the results depend on the processing

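The falls of *Tgfb2*, *Tgfb3* and *Tgfbr2* in KO22 against WT kept their direction and their call in all 16 alternatives, and those against KO26 in all 18. With 4 WT, 3 KO22 and 2 KO26 libraries, leaving out a KO26 library leaves 1 that is assumed to vary like the other groups, and in the fit of 7 libraries leaving out the WT or KO22 library of series 8995 leaves that series without a contrast. Between KO22 and WT, 4 of the 10 genes were called higher with no fold limit and 1 (*Tgfbr1*) with a limit of 1, beside 0 at the limit of 1.2. Each library left out in turn gave 0 of 10 higher and 3 lower. Between KO22 and KO26, the genes called higher were 2 with no fold limit, 0 with no series term and 0 with the libraries of the clones alone, where *Tgfbr1* stood at 1.199 and 1.195, just under the limit. Between KO26 and WT, 0 to 1 genes were called higher with libraries left out, the 1 being *Tgfb1* without the KO26 library of series 9262 (log2 fold change 1.79, adjusted p over all alternatives 0.0357 to 0.899). By the adjusted p alone, *Tgfbr3* passed in KO26 against WT without the KO22 library of series 8995 (-0.45, 0.00866, edgeR) and with the WT and KO26 libraries alone (0.0128), and *Smad7* passed in the same settings (0.0158 and 0.00979) and in series 9262 alone (0.0135). *Tgfb1* and *Tgfb2* passed in this comparison without that KO22 library (0.0387 and 0.0401). With series 9262 alone, *Smad3* turned to -0.054 in KO26 against WT, and in KO22 against KO26 *Tgfb1* turned to 0.82, *Tgfbr3* to -0.23 and *Smad7* to -0.75. With single libraries left out, values that changed sign ranged in KO26 against WT from -0.27 to 0.025 (*Tgfb3*), -0.063 to 0.23 (*Smad3*) and -0.10 to 1.01 (*Smad7*). In KO22 against KO26 the ranges were -0.80 to 0.78 (*Tgfb1*), -0.13 to 0.62 (*Tgfbr3*) and -0.63 to 0.71 (*Smad7*). In RPE/choroid they were -0.32 to 0.23 (*Tgfb3*) and -0.067 to 0.22 (*Tgfbr3*). The cause of these changes was not tested. The tissue value of *Smad3* lay between -0.67 and -0.54 in its 12 alternatives, with adjusted p from 0.0216 to 0.648, and no alternative called it at both limits. No paired analysis was possible because replicate numbers were given in accession order and pair no libraries.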
